A study of Gossypium hirsutum and Gossypium barbadense with 16 samples.

Results

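Chromosomes A12 and D12 are homoeologs, the counterparts of one ancestral chromosome in the A and D subgenomes of the allotetraploid Upland cotton, Gossypium hirsutum. Their genes were all those whose gene ID in the G. hirsutum tables carries the chromosome code A12 or D12, and they were ordered along each chromosome by the number in the ID. A12 had 3054 genes and D12 had 3139, together 6193 of the 75376 G. hirsutum genes. Of these, 654 A12 genes and 666 D12 genes were listed at 0 FPKM (fragments normalised to transcript length and library size) in all 10 G. hirsutum libraries and could not be tested, which left 2400 and 2473 genes. A mean over 5 FPKM in at least 1 group, the level below which no gene was called, was reached by 1145 A12 genes and 1205 D12 genes.

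A cotton fiber is a single cell of the ovule epidermis that elongates into a seed hair. Naked-seed and fiberless loci, N1 and n2, have been mapped to A12 and D12. Both have been tied to homoeologs of MYB25-like, a gene for an R2R3-MYB transcription factor needed for fiber initiation, and N1 has been linked to small RNAs directed at that gene. The sources used here give no gene ID for MYB25-like, so it has no values below, and the gene IDs carry no gene names except where the study pairs them with an Arabidopsis gene.

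The libraries came from cells cut by laser-capture microdissection from ovules of greenhouse plants. GhTM-1 is the fibered wild type of G. hirsutum, and GhMD17 is a fiberless line of the same species for which the loci N1, n2 and n3 have been proposed as the genetic basis. The 5 G. hirsutum groups had 2 biological replicates each. They were epidermal cells of GhTM-1 and GhMD17 at 0 and 2 days post anthesis (DPA), and fiber cells of GhTM-1 at 2 DPA. The epidermal groups were the top layer of the ovule, except that in GhTM-1 at 2 DPA the fibers had already been removed from that layer and were sequenced on their own. Effects of the fiberless loci and of the rest of the genome of each line cannot be told apart. The series also holds a wild type of a second species, G. barbadense. Its groups were epidermal cells at 0 and 2 DPA and fiber cells at 2 DPA, with 2 biological replicates each. Its values are given further below without a test.

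Between 43136 and 51156 genes per library had an FPKM over 0. A12 genes held 2.87% to 3.40% of the summed FPKM of a library and D12 genes held 3.09% to 3.66%. The homologs of MYB106 that the study names GhMYB25, a factor that promotes fiber initiation, were read as a marker of cells entering the fiber fate. Gohir.1Z049716 ranged from 115 to 199 FPKM in the GhTM-1 libraries and from 0 to 8.51 in the GhMD17 libraries, and Gohir.D04G191100 from 154 to 281 and from 0.196 to 14.4. Both homologs of MYB66 (GhMYB109), Gohir.A05G359100 and Gohir.D04G055100, ranged from 1.47 to 15.1 FPKM over the G. hirsutum libraries and did not pass the test between the lines in epidermal cells at 0 or 2 DPA. In fiber cells Gohir.A05G359100 was higher than in GhMD17 (log2 difference 1.68 ± 0.400, adjusted p = 0.0207), and Gohir.D04G055100 did not pass (adjusted p = 0.115). The study chose these markers on the same libraries.

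At 0 DPA, few genes of either chromosome differed between the lines, and more of them were higher in GhTM-1 than lower. The fit was limma on log2(FPKM + 1) over all 57469 tested genes, and a gene was called where the Benjamini-Hochberg adjusted p was under 0.05, the higher group had a mean over 5 FPKM and the means differed by a ratio over 1.5. On A12, 30 genes were upregulated in GhTM-1 and 17 were down-regulated, and on D12 38 were upregulated and 24 down-regulated. Over all genes tested, 1.85% were called higher and 0.894% lower. A12 stood below that background in both directions, at 1.25% and 0.708%, while D12 had 1.54% higher and 0.970% lower. The median difference of the called A12 genes was 1.14 on the log2 scale for those higher and -1.44 for those lower, and on D12 it was 1.49 and -1.44. A difference over 4-fold on that scale was found for 6 of the 30 and 4 of the 17 genes on A12, and for 12 of the 38 and 8 of the 24 genes on D12.

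Among the 26 chromosomes, A12 had the smallest share of genes called at 0 DPA, 1.96% against 2.21% to 3.51% on the others. D12, at 2.51%, was number 20 from the top. A12 was last and D12 number 20 also when only genes over 5 FPKM in the higher group were counted, where 4.47% of 1052 A12 genes and 5.55% of 1117 D12 genes were called against 6.14% over all chromosomes. The ranks describe these libraries and were not tested, since genes of one chromosome are not replicates. A12 was last under 17 of 19 alternative settings and among the last 3 under the other settings. With the limit of an unadjusted P of 0.01 that the study used, D12 was number 11, at 5.94%. A12 had 4.83%, against 5.86% over all chromosomes. The directions were then nearly even, with 62 genes higher and 54 lower on A12 and 75 and 72 on D12. Directions at that limit are not given over all genes, so whether this is particular to A12 and D12 is not shown. The counts were lower without any of the libraries compared, at 15 and 18 on A12 without replicate 1 or 2 of GhTM-1 at 0 DPA and 15 and 12 without replicate 1 or 2 of GhMD17, and on D12 26, 23, 22 and 18.

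**Figure D1:**
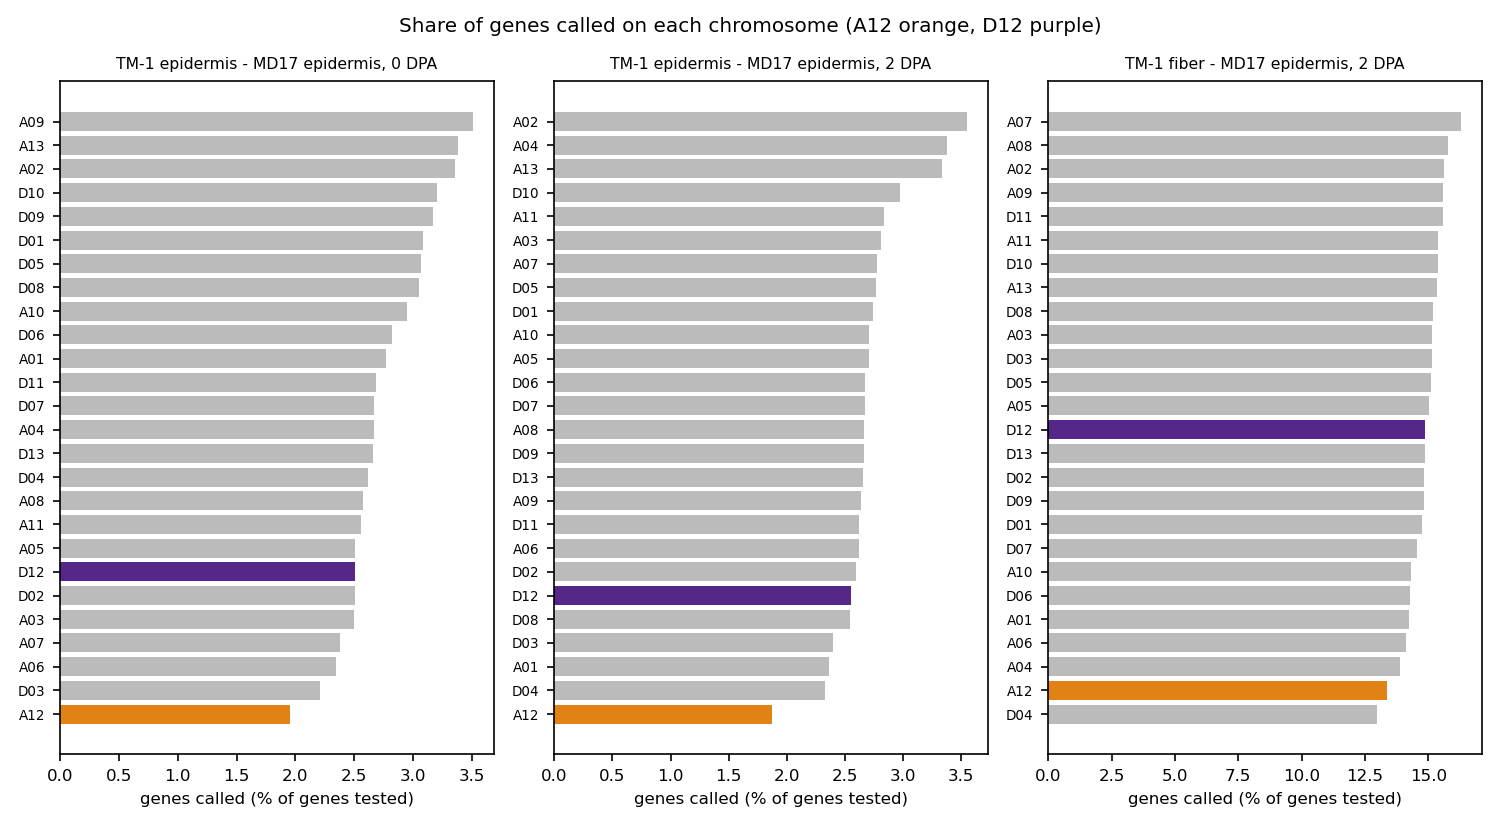
Share of tested genes called (percent, bars from 0) on each of the 26 chromosomes in epidermal cells at 0 DPA, epidermal cells at 2 DPA, and GhTM-1 fiber cells against GhMD17 epidermal cells, with A12 in orange and D12 in purple. A12 is the lowest bar at 0 DPA (1.96%) and at 2 DPA (1.88%), and D12 lies above it in all 3 comparisons.

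At 2 DPA, the counts in epidermal cells were close to those at 0 DPA. On A12 30 genes were higher in GhTM-1 and 15 lower, and on D12 37 were higher and 26 lower, against 1.69% and 0.995% of all genes tested. The shares were 1.25% and 0.625% on A12 and 1.496% and 1.05% on D12. A12 was again the lowest of the 26 chromosomes, at 1.88% against 2.33% to 3.55% on the others, and D12 was number 21 at 2.55%. A12 was last under 18 of the 19 alternatives. The genes called higher had a larger median than at 0 DPA, 1.76 on A12 and 2.02 on D12, and 10 of 30 and 19 of 37 of them were over 4-fold. With an unadjusted P under 0.01, D12 had more genes lower (72) than higher (64), as it did among genes with orthologs (30 and 25). Without replicate 1 of GhTM-1 at 2 DPA the counts were 10 on A12 and 16 on D12, and without replicate 1 or 2 of GhMD17 at 2 DPA they were 20 and 16 on A12 and 33 and 23 on D12.

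The median log2 difference over the genes over 5 FPKM at 0 DPA was -0.11 on A12 and -0.10 on D12, against -0.07 over all genes, numbers 24 and 20 from the top of the 26 chromosomes. At 2 DPA it was -0.13 and -0.15 against -0.13, numbers 16 and 24. Each pairing of 1 replicate of each line gave medians from -0.13 to -0.05 on A12 and from -0.15 to -0.07 on D12 at 0 DPA.

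The groups compared at 0 and at 2 DPA share no library, and 51 genes were called in both comparisons. The calls are not independent, since the fit took one estimate of spread from all 10 libraries. With only the libraries of each comparison, 1 A12 gene and 3 D12 genes were called at both stages. On A12, 16 genes were higher in GhTM-1 and 9 lower at both stages, and on D12 18 were higher and 8 lower. Over all genes tested, 0.933% were higher and 0.39% lower at both stages, and with 1.04% in either direction A12 was number 25 of 26 and with 1.05% D12 was number 23. The genes shared between stages were 53.3% of those higher on A12 at either stage, and 47.4% and 48.7% of those higher on D12 at 0 and at 2 DPA. For lower genes the shares were 52.9% and 60.0% on A12 and 33.3% and 30.8% on D12, which rest on 9 and 8 genes. Over all genes tested, 1065 were higher at 0 DPA and 971 at 2 DPA, 536 of them at both stages. For lower genes these counts were 514, 572 and 224. No gene was called in opposite directions. Of the 109 calls at 0 DPA, 104 had the same sign at 2 DPA.

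**Figure D2:**
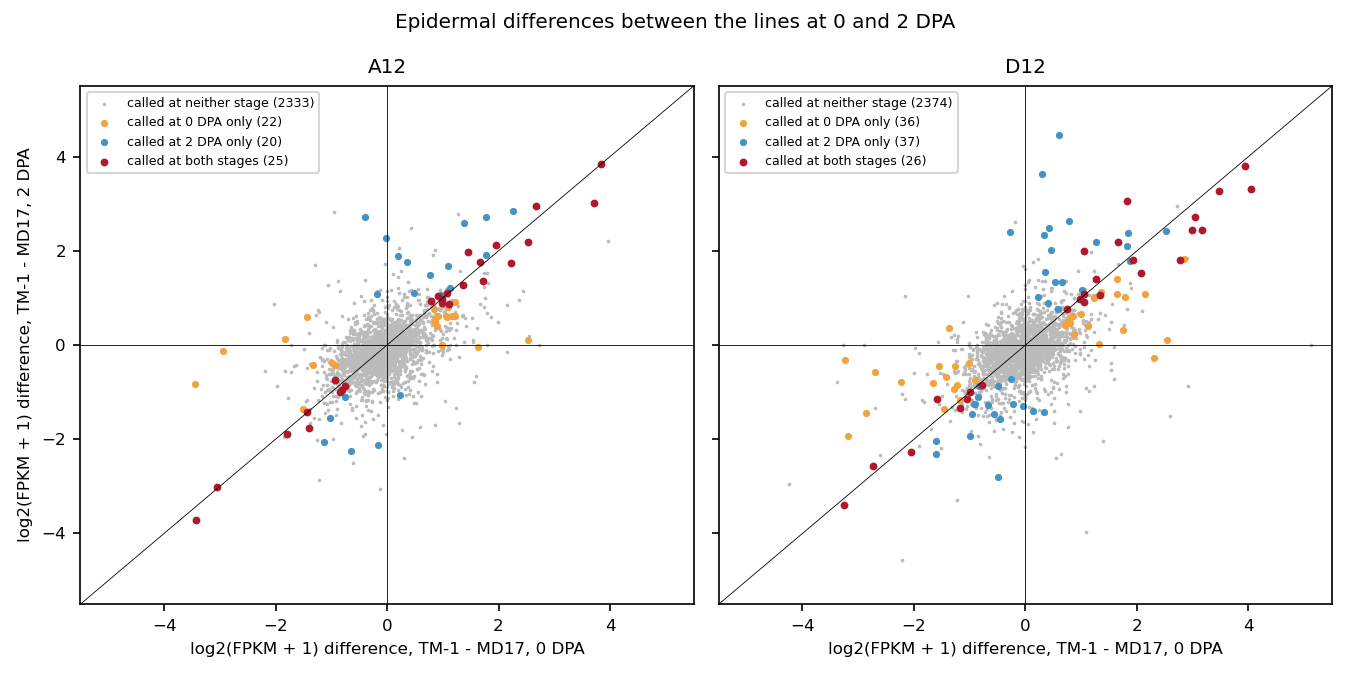
Difference between GhTM-1 and GhMD17 epidermal cells on the log2(FPKM + 1) scale at 0 DPA (horizontal) and at 2 DPA (vertical) for each tested gene of A12 and D12, coloured by the stage at which it was called. The 25 genes of A12 and 26 genes of D12 called at both stages lie at the lower left and the upper right of each panel.

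A set of genes called higher at both stages was nearly silent in GhMD17 and had its highest values in the fiber cells of GhTM-1. On A12 these were Gohir.A12G014200 and Gohir.A12G272100, and on D12 Gohir.D12G014800, Gohir.D12G257200 and Gohir.D12G272900. They were grouped after their values were seen. Against GhTM-1 epidermal cells of the same day the higher level in fiber cells passed the test for Gohir.A12G272100 among them, and the adjusted p of the others ran from 0.0835 to 0.144. Gohir.A12G014200, gene number 159 of A12, had 15.4 and 12.7 FPKM in GhTM-1 epidermal cells at 0 DPA, 25.6 and 21.9 at 2 DPA, and 48.5 and 62.0 in fiber cells. Its GhMD17 libraries had 0 and 0.0998 at 0 DPA and 1.40 and 0.245 at 2 DPA. All 6 GhTM-1 libraries were thus above all 4 GhMD17 libraries. The log2 difference was 3.84 ± 0.317 (SE) at 0 DPA (adjusted p = 0.00121) and 3.84 ± 0.317 at 2 DPA (adjusted p = 0.00169), and the call held under each of the 18 alternatives that could be run for it.

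Gohir.A12G272100, number 2992 near the other end of A12, had 7.44 and 4.39 FPKM in GhTM-1 at 0 DPA, 19.8 and 21.7 at 2 DPA and 49.8 and 47.6 in fiber cells, against 0 and 0.109 in GhMD17 at 0 DPA and 1.43 and 2.21 at 2 DPA. The groups did not overlap at either stage, and the log2 differences were 2.68 ± 0.263 (adjusted p = 0.00264) and 2.96 ± 0.263 (adjusted p = 0.00214). Fiber cells were above the epidermal cells of GhTM-1 at 2 DPA by 1.195 on the log2 scale (adjusted p = 0.0484). The call at 0 DPA was lost under 3 of 19 alternatives and that at 2 DPA under none.

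On D12, Gohir.D12G014800 (number 165) had 15.1 and 6.71 FPKM in GhTM-1 at 0 DPA, 28.4 and 19.9 at 2 DPA and 54.9 and 46.3 in fiber cells. GhMD17 was listed at 0 in both libraries at 0 DPA and had 1.83 and 1.31 FPKM at 2 DPA. The log2 differences were 3.48 ± 0.352 (adjusted p = 0.00307) and 3.28 ± 0.352 (adjusted p = 0.00424). Its number on D12 is close to that of Gohir.A12G014200 on A12, but A12 and D12 genes were not paired here, and whether these are homoeologs was not examined. The call at 0 DPA was lost under 1 of 19 alternatives and that at 2 DPA under none.

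Gohir.D12G257200 (number 2907) had 20.9 and 10.7 FPKM in GhTM-1 at 0 DPA, 30.6 and 25.98 at 2 DPA and 57.6 and 68.2 in fiber cells, against 0 and 0.0827 in GhMD17 at 0 DPA and 1.41 and 0.812 at 2 DPA. Gohir.D12G272900 (number 3088) had 20.5 and 12.9, then 31.9 and 35.1, then 62.1 and 57.7 FPKM in the same order, against 0.00574 and 0.0751 in GhMD17 at 0 DPA and 2.204 and 2.79 at 2 DPA. Both were high in every GhTM-1 library and low in every GhMD17 library. The difference of the latter at 0 DPA, 4.06 ± 0.230 on the log2 scale (adjusted p = 0.000271), was the largest among the called genes of either chromosome at that stage, and that of the former was 3.94 ± 0.309 (adjusted p = 0.00101). Both stayed called at both stages under each of 19 alternatives.

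Other genes higher in GhTM-1 at both stages did not follow that order. Gohir.A12G059700 had like values in all GhTM-1 groups, with 11.8 and 13.4 FPKM in epidermal cells at 0 DPA, 9.40 and 16.4 at 2 DPA and 7.70 and 16.6 in fiber cells, while GhMD17 had 0 and 0.0809, then 0.817 and 0.546. Gohir.D12G039000 had 5.01 to 7.37 FPKM in the 6 GhTM-1 libraries, was listed at 0 in both GhMD17 libraries of 0 DPA and had 0.179 and 0.249 at 2 DPA. Gohir.D12G166750 was highest at 0 DPA. It had 47.2 and 106.7 FPKM in GhTM-1 at 0 DPA, 24.0 and 36.7 at 2 DPA and 15.2 and 18.8 in fiber cells, and GhMD17 was lower at each stage with 7.41 and 8.85, then 4.71 and 4.53. Gohir.A12G001166 and Gohir.A12G005000 had the same order of groups at lower levels, from 17.1 and 13.5 to 6.23 and 3.43 FPKM and from 10.2 and 7.74 to 4.43 and 3.45 FPKM in GhTM-1. The calls of these 5 genes at either stage were lost under 0 to 6 alternatives, most often that of Gohir.D12G166750 at 2 DPA.

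**Figure D3:**
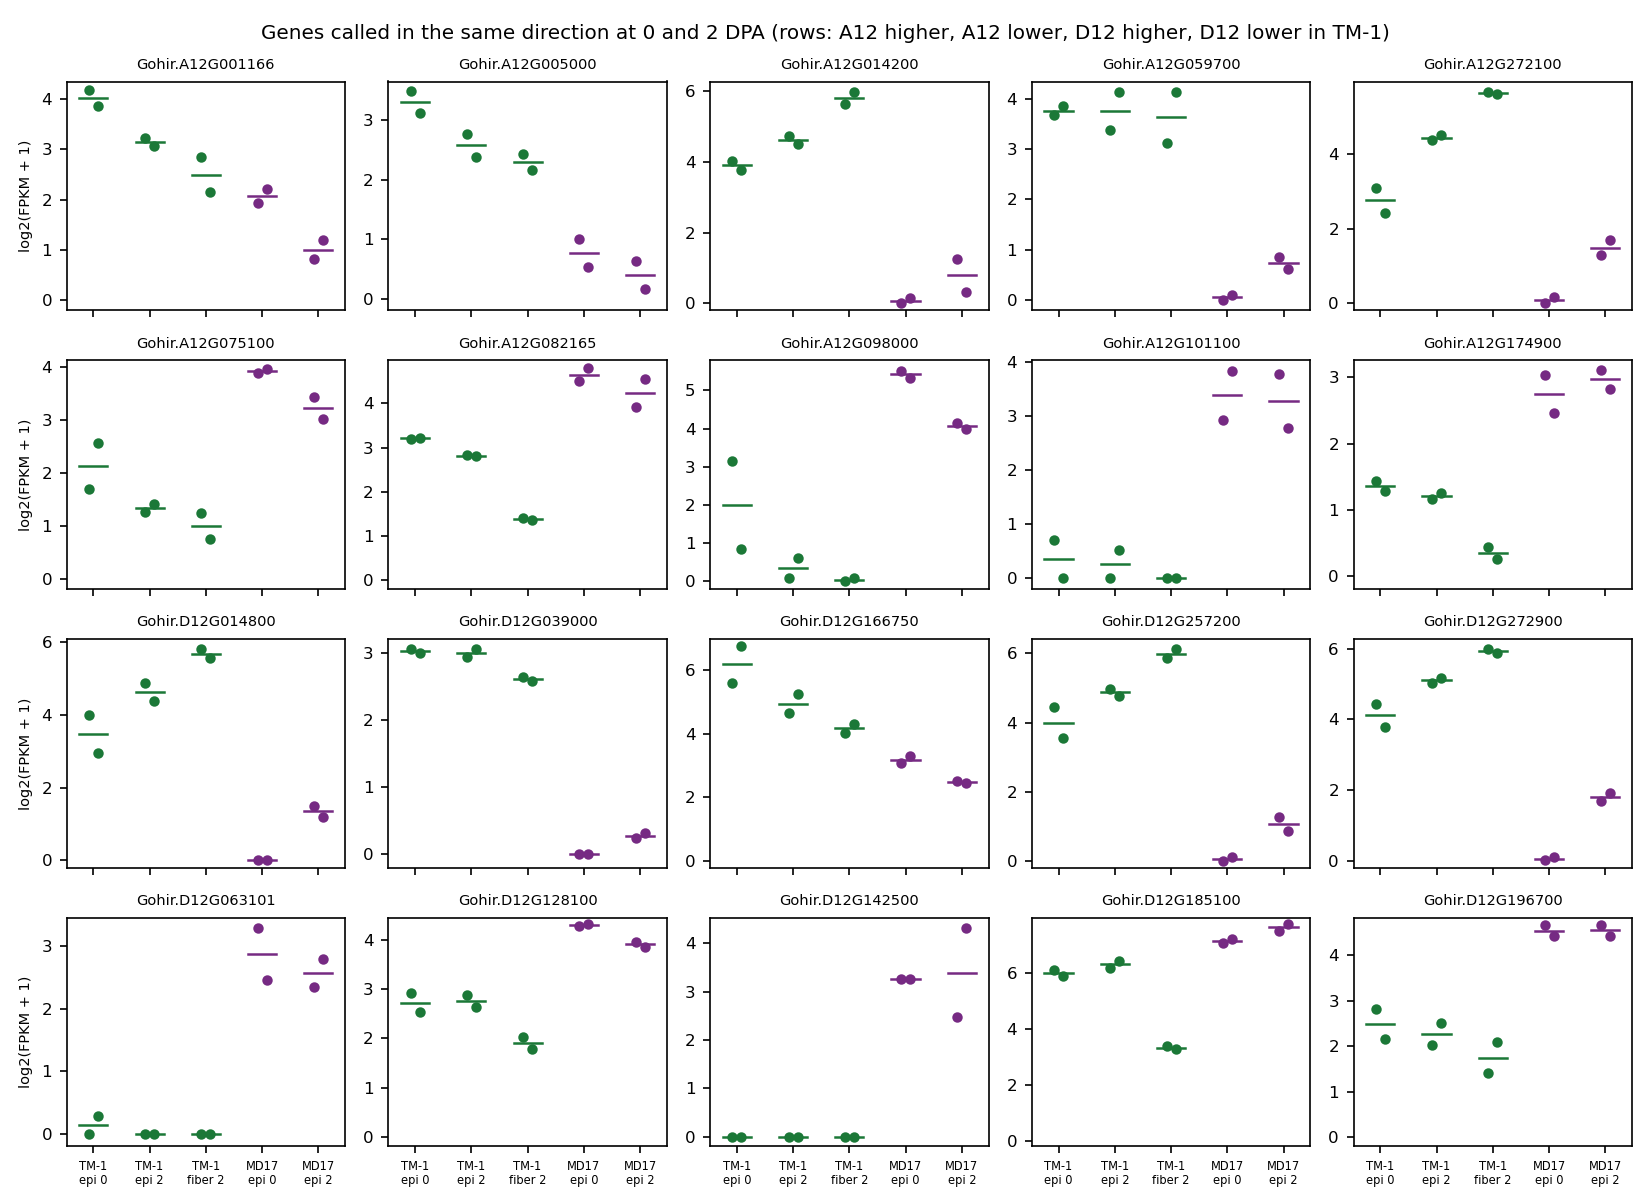
Value of each library on the log2(FPKM + 1) scale (points) with the group mean (lines) for the 5 genes of each chromosome and direction with the largest differences at both stages, GhTM-1 in green and GhMD17 in purple; epi is epidermal cells and 0 and 2 are DPA. The 5 genes with their highest values in GhTM-1 fiber cells reach 46.3 to 68.2 FPKM in the fiber libraries and at most 2.79 FPKM in any GhMD17 library.

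The more abundant genes of both stages differed by smaller factors. Gohir.A12G265500 had 138.8 and 98.8 FPKM in GhTM-1 at 0 DPA, 259 and 203 at 2 DPA and 426 and 344 in fiber cells, and GhMD17 had 44.1 and 40.7, then 60.7 and 54.0. Gohir.D12G168300 had 353 and 302, then 362 and 264, then 514 and 464 FPKM in the same groups, against 145.8 and 168.7, then 140.5 and 148.3. A further 4 genes of both stages, chosen after their values were seen and outside the rule for named genes, were Gohir.D12G155200, Gohir.D12G145300, Gohir.A12G127800 and Gohir.D12G229200. Gohir.D12G155200 had 10.3 and 5.89 FPKM in GhTM-1 at 0 DPA, 22.7 and 22.5 at 2 DPA and 47.7 and 37.3 in fiber cells, and 1.13 to 2.196 in the GhMD17 libraries. Its order of groups was that of the set nearly silent in GhMD17, which was drawn only from genes under that rule. Gohir.D12G145300 had 14.7 to 23.9 FPKM in the 6 GhTM-1 libraries against 1.23 to 2.88 in GhMD17, and Gohir.A12G127800 had 34.2 to 62.7 against 8.36 to 12.8. Gohir.D12G229200 had 33.7 and 27.3 FPKM in GhTM-1 at 0 DPA, 10.5 and 13.0 at 2 DPA and 25.2 and 21.0 in fiber cells, so that its lowest GhTM-1 values were those of epidermal cells at 2 DPA, and GhMD17 had 2.26 to 4.32. In none of these did a GhMD17 library reach a GhTM-1 library. Over all 16 such A12 genes the log2 difference ran from 0.78 to 3.84 at 0 DPA with a median of 1.56 and from 0.87 to 3.84 at 2 DPA with a median of 1.55. On D12 the 18 genes ran from 0.75 to 4.06 with a median of 1.88, and from 0.77 to 3.80 with a median of 1.90. Fiber cells had a higher log2 mean than GhTM-1 epidermal cells of 2 DPA for 13 of the 16 and 16 of the 18 genes. The median of that difference over all genes over 5 FPKM, a wider set, was -0.10. The count was not made for the 536 genes higher at both stages on any chromosome. Whether it is particular to A12 and D12 was therefore not tested.

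The genes lower in GhTM-1 at both stages included several that were almost silent in it. Gohir.D12G142500 was listed at 0 FPKM in all 6 GhTM-1 libraries and had 8.61 and 8.54 in GhMD17 at 0 DPA and 4.55 and 18.9 at 2 DPA. It was the only gene of either chromosome listed at 0 in all GhTM-1 libraries and over 1 FPKM in all GhMD17 libraries, of 5 such genes in all. None of the A12 and D12 genes had the reverse listing, of 1 gene in all, and no test was made on these listings. Gohir.D12G063101 had 0.217 FPKM in 1 GhTM-1 library and 0 in the other 5, against 8.79 and 4.48 in GhMD17 at 0 DPA and 4.10 and 5.96 at 2 DPA. Gohir.A12G101100 had at most 0.627 FPKM in GhTM-1 and 5.89 to 13.4 in GhMD17. An FPKM of exactly 0 can be a failed estimate, so no ratio was taken for these genes. The calls at 0 and 2 DPA were lost under 9 and 8 of 19 alternatives for Gohir.D12G142500, 3 and 4 of 18 for Gohir.D12G063101 and 4 and 5 of 19 for Gohir.A12G101100.

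Gohir.A12G098000 had the largest difference at 2 DPA among the A12 genes called lower in GhTM-1, but its GhTM-1 replicates at 0 DPA were far apart. They had 7.82 and 0.805 FPKM, and the other GhTM-1 libraries had 0 to 0.518. GhMD17 had 44.7 and 39.2 FPKM at 0 DPA and 16.6 and 14.9 at 2 DPA, above every GhTM-1 library. The log2 difference was -3.42 ± 0.636 at 0 DPA (adjusted p = 0.0314) and -3.71 ± 0.636 at 2 DPA (adjusted p = 0.0235), and the calls were lost under 10 and 8 of the 19 alternatives.

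Further genes lower in GhTM-1 were expressed in both lines. Gohir.D12G185100 had 66.7 and 57.4 FPKM in GhTM-1 at 0 DPA, 71.5 and 83.8 at 2 DPA and only 9.42 and 8.63 in fiber cells, and GhMD17 had 132.7 and 148.0, then 180.4 and 213.2. The adjacent gene Gohir.D12G185200 also was lower in GhTM-1 at both stages, with 6.64 and 6.89 FPKM against 14.2 and 14.7 at 0 DPA and 4.71 and 5.36 against 10.1 and 12.2 at 2 DPA. Gohir.A12G182200 had 51.7 and 47.4 FPKM in GhTM-1 against 87.5 and 87.3 at 0 DPA, and 63.3 and 64.5 against 126.2 and 122.0 at 2 DPA. Gohir.A12G082165, Gohir.A12G075100, Gohir.A12G174900, Gohir.D12G128100 and Gohir.D12G196700 were 2.43 to 5.78 times lower in GhTM-1 by mean FPKM at both stages. Of these, Gohir.A12G174900 (7.18 and 4.53 FPKM in GhMD17 against 1.69 and 1.44 at 0 DPA) lost its call at 0 DPA under 14 of 18 alternatives and Gohir.A12G075100 under 12 of 19. At 2 DPA they lost it under 6 and 10, and the other 3 genes lost theirs under 2 to 7 alternatives at either stage. The calls of Gohir.D12G185100 and Gohir.A12G182200 were lost under 1 to 3 of 19.

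The difference between the lines itself differed between the stages for 1 gene of A12 and 2 of D12, by the interaction of line and stage with an adjusted p under 0.05. Over all genes tested, 0.0487% passed. Fibers had been cut from the GhTM-1 layer at 2 DPA but not at 0 DPA, while the GhMD17 layer was cut alike at both stages. Stage and the cells sampled therefore cannot be told apart in the interaction. Gohir.D12G040100 (number 445) had 0.108 and 0.362 FPKM in GhTM-1 at 0 DPA, 24.9 and 19.2 at 2 DPA and 65.2 and 67.5 in fiber cells. GhMD17 was listed at 0 in both libraries of 0 DPA and had 0.961 and 0.762 at 2 DPA. Gohir.D12G078000 (number 875) had 0.953 and 0.331 FPKM in GhTM-1 at 0 DPA, then 49.6 and 42.1, then 52.8 and 89.5 in fiber cells, against 0 and 0.126, then 1.37 and 0.893 in GhMD17. At 0 DPA both were below 1 FPKM in every library of both lines, and at 2 DPA the lines were apart. The interaction was 3.33 ± 0.340 on the log2 scale for the former (adjusted p = 0.0350) and 3.86 ± 0.450 for the latter (adjusted p = 0.0487).

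The A12 gene, Gohir.A12G214500 (number 2368), differed at 0 DPA and not at 2 DPA. It had 8.31 and 9.11 FPKM in GhMD17 at 0 DPA, 0.806 and 0.926 at 2 DPA, and 0.181 to 0.859 in the GhTM-1 epidermal libraries, and was listed at 0 in both fiber libraries. Its interaction was 2.83 ± 0.305 (adjusted p = 0.0354). Gohir.A12G214300, which lies 2 genes before it, had 19.2 and 21.2 FPKM in GhMD17 at 0 DPA, 3.97 and 1.53 at 2 DPA, and 0.290 to 1.73 in all GhTM-1 libraries. Gohir.D12G217100 had 56.7 and 76.6 FPKM in GhMD17 at 0 DPA, 5.01 and 4.23 at 2 DPA, and 0.608 to 7.44 in GhTM-1. Both were called at 0 DPA, with log2 differences of -3.44 ± 0.462 (adjusted p = 0.00956) and -3.23 ± 0.510 (adjusted p = 0.0178), but their interactions, 2.61 and 2.91, did not pass (adjusted p = 0.353 and 0.345). The calls at 0 DPA were lost under 3 and 6 of 19 alternatives. All 3 interaction calls were lost without either fiber library, with the replicate number as a block and with a pseudocount of 0.1.

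**Figure D4:**
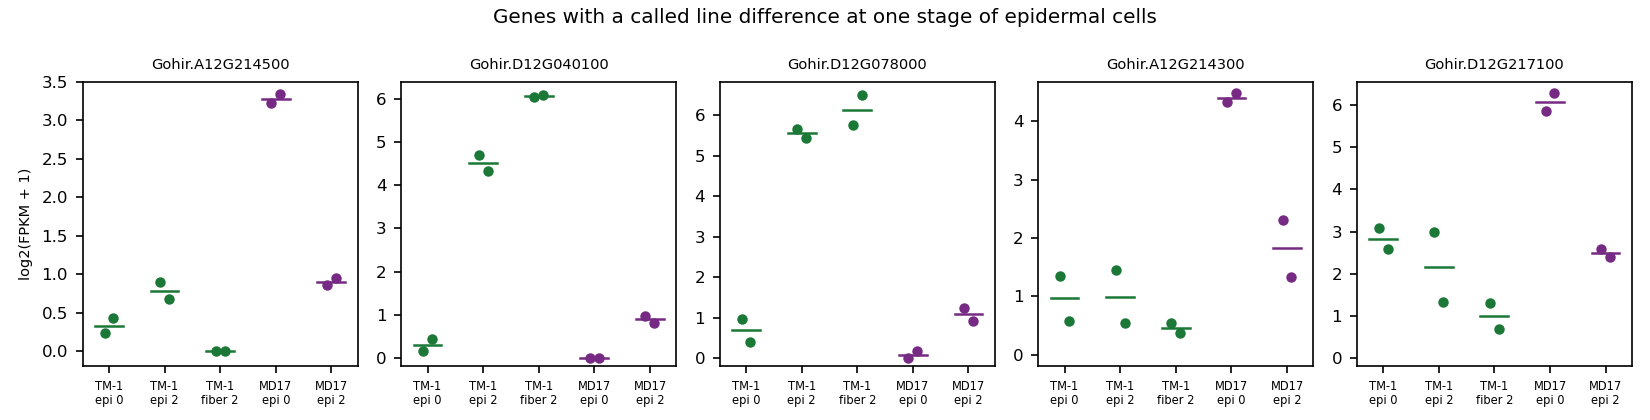
Value of each library on the log2(FPKM + 1) scale (points) and group means (lines) for the 3 genes with a called interaction of line and stage and for Gohir.A12G214300 and Gohir.D12G217100, whose interaction did not pass. The D12 genes Gohir.D12G040100 and Gohir.D12G078000 are high only in GhTM-1 at 2 DPA, whereas Gohir.A12G214500 is high only in GhMD17 at 0 DPA.

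Against the epidermal cells of GhMD17 at 2 DPA, the fiber cells of GhTM-1 differed at many more genes, and most of these were lower in the fiber. With a ratio over 2 as the limit, 92 A12 genes were higher and 229 lower, and 106 D12 genes were higher and 262 lower. Over all genes tested, 5% were called higher and 9.87% lower. A12 had 3.83% higher, the smallest share of the 26 chromosomes, and 9.54% lower. D12 had 4.29% higher, number 24, and 10.6% lower, number 5. In either direction A12 was number 25 at 13.4% and D12 number 14 at 14.9%, with a range of 13.0% to 16.3% over all chromosomes. The fiber libraries were shifted as a whole, with a median log2 difference of -0.32 over all genes over 5 FPKM, -0.31 on A12 and -0.31 on D12. Cell type and line cannot be told apart in this comparison. Without replicate 1 of GhMD17 at 2 DPA the counts were 209 on A12 and 233 on D12, and without fiber replicate 1 the A12 count was 213.

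The largest increases in fiber cells on A12 were those of Gohir.A12G014200 (5.01 ± 0.317 on the log2 scale, adjusted p = 0.000119) and Gohir.A12G272100 (4.15 ± 0.263, adjusted p = 0.000120), and on D12 those of Gohir.D12G040100 (5.18 ± 0.241, adjusted p = 4.91e-05) and Gohir.D12G078000 (5.04 ± 0.318, adjusted p = 0.000119). Their values by library are given above, and each stayed called under every alternative that could be run. The largest decreases came from genes that both epidermal layers expressed. Gohir.A12G182200 had 3.70 and 4.11 FPKM in fiber cells against 126.2 and 122.0 in GhMD17, a log2 difference of -4.67 ± 0.119 (adjusted p = 2.48e-05). Gohir.A12G178500 had 3.29 and 0.827 FPKM in fiber cells, 64.0 and 63.3 in GhMD17 and 17.4 and 24.6 in GhTM-1 epidermal cells of the same day. Its difference from GhMD17 was -4.53 ± 0.444 (adjusted p = 0.000574).

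On D12, Gohir.D12G066800 had 1.39 and 1.03 FPKM in fiber cells, 43.2 and 55.1 in GhMD17 and 11.7 and 10.6 in GhTM-1 epidermal cells of 2 DPA, a log2 difference of -4.50 ± 0.390 from GhMD17 (adjusted p = 0.000356). Gohir.D12G044850 had a slightly larger difference, -4.72 ± 1.11 (adjusted p = 0.0198), but its replicates were far apart, with 17.2 and 0 FPKM in fiber cells and 83.9 and 147.1 in GhMD17, and the call was lost under 7 alternatives. Gohir.D12G185100, named above, was also lower in fiber cells than in GhMD17 (-4.30 ± 0.159, adjusted p = 2.98e-05).

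Within GhTM-1 at 2 DPA, the fiber cells differed from the epidermal cells under them almost only by lower genes. On A12 4 genes were higher and 68 lower, and on D12 10 were higher and 85 lower, against 0.4% and 3.18% of all genes tested. In either direction these were 3.00% of A12 genes, number 24 of 26, and 3.84% of D12 genes, number 5. The median called decrease was -1.76 on A12 and -1.70 on D12. Gohir.A12G182200 (-3.73 ± 0.119, adjusted p = 0.000103), Gohir.A12G178500 (-2.96 ± 0.444, adjusted p = 0.0148), Gohir.D12G185100 (-2.97 ± 0.159, adjusted p = 0.000511), Gohir.D12G066800 (-2.46 ± 0.390, adjusted p = 0.0173) and Gohir.A12G082165 (-1.44 ± 0.230, adjusted p = 0.0179) were among the decreases. Gohir.D12G040100 was among the increases, with 1.56 ± 0.241 (adjusted p = 0.0158). In the fits without each library in turn the counts were 27 to 53 on A12 and 39 to 63 on D12.

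Along both chromosomes the called genes were spread out rather than gathered in a single block. Whether they lie together more than on other chromosomes was not tested. In non-overlapping windows of 50 genes, no window of A12 held more than 3 genes called at 0 DPA or more than 2 at 2 DPA, and no window of D12 more than 4 or 3. At 0 DPA 28 of the 62 windows of A12 and 24 of the 63 windows of D12 held none. The window with most calls per tested gene at 0 DPA was genes 2901 to 2950 on A12, with 3 of 39 (7.69%, exact Clopper-Pearson 95% interval 1.62% to 20.9%), and genes 1901 to 1950 on D12, with 4 of 42 (9.52%, interval 2.66% to 22.6%). These intervals cover counting error only, and the windows were chosen as the highest, so no test was made. The largest step in gene order from one called gene to the next at 0 DPA was 257 on A12 and 176 on D12, with untested genes counted.

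**Figure D5:**
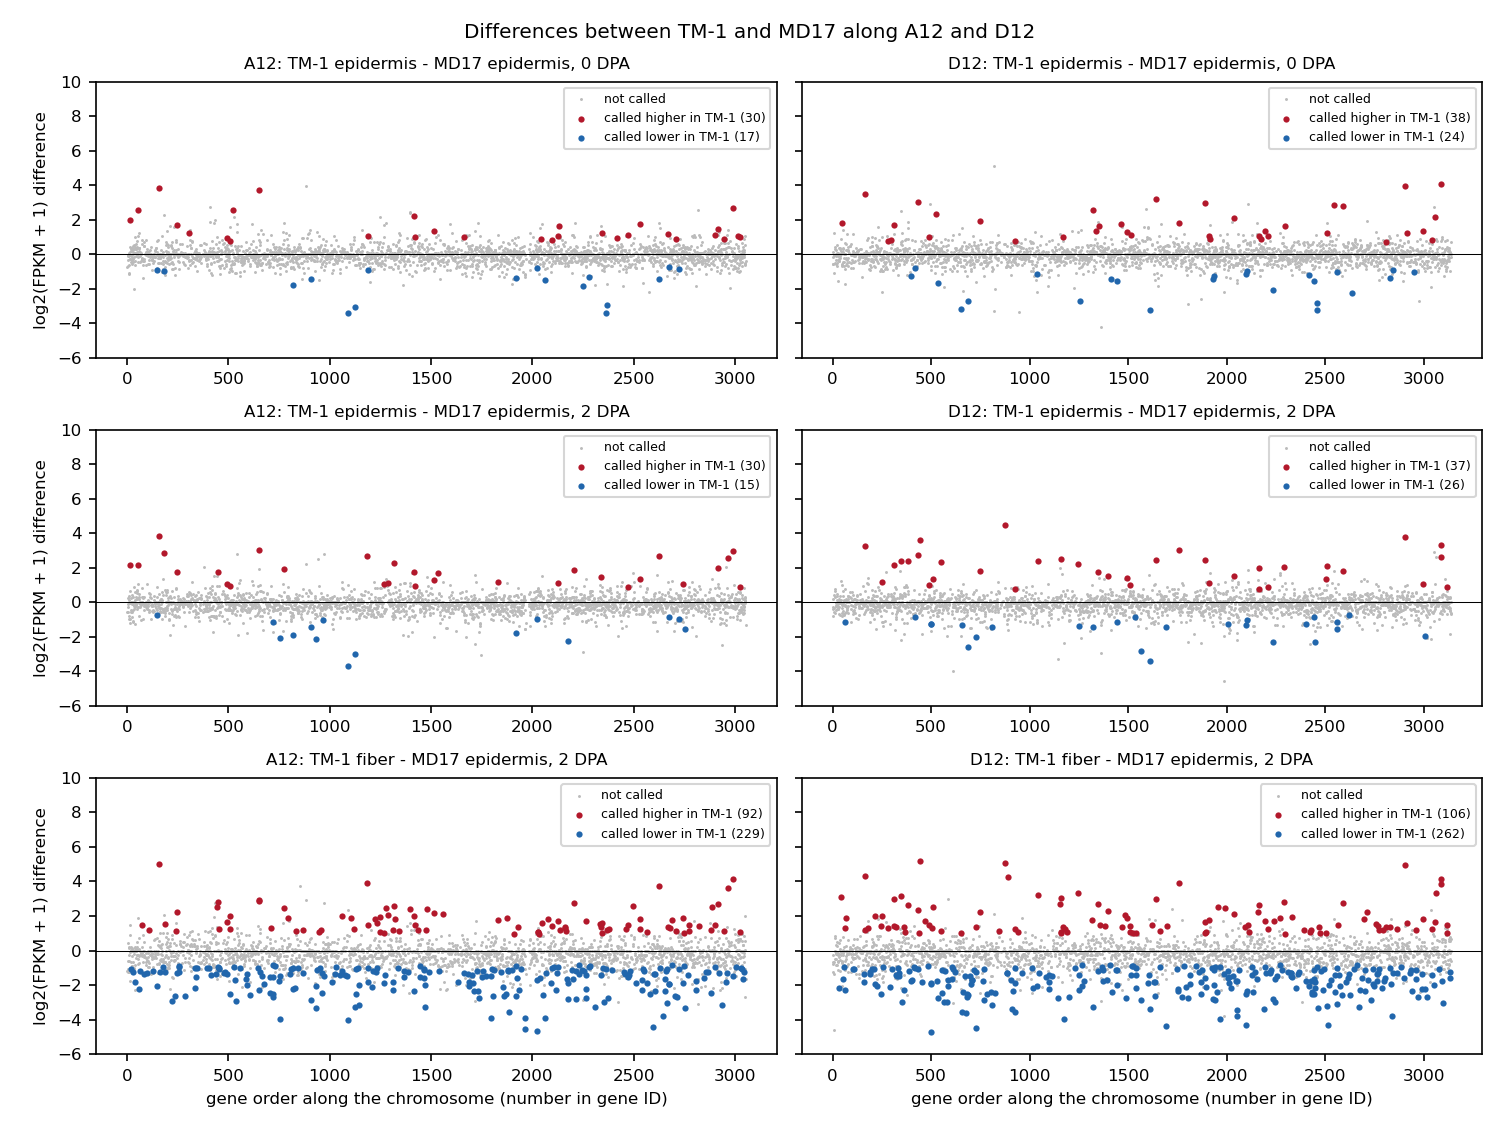
Difference on the log2(FPKM + 1) scale for every tested gene of A12 (left) and D12 (right) against its order along the chromosome, for epidermal cells at 0 DPA, epidermal cells at 2 DPA, and GhTM-1 fiber cells against GhMD17 epidermal cells; called genes are red where higher and blue where lower in GhTM-1. Called genes lie along the whole of both chromosomes, and the fiber comparison has 321 on A12 and 368 on D12, mostly lower.

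In 4 stretches of equal gene number from start to end, A12 had 11, 9, 10 and 17 calls at 0 DPA and 12, 14, 7 and 12 at 2 DPA. D12 had 14, 12, 17 and 19, then 18, 15, 15 and 15. The last stretch of A12 (genes 2292 to 3054) thus had the most calls at 0 DPA, 12 higher and 5 lower, and not at 2 DPA. Its share at 0 DPA, 2.75% of 619 tested genes, was that over all chromosomes, 2.75%. The other A12 stretches were below that share, at 1.85%, 1.59% and 1.62%. In the fiber comparison the stretches had 72, 81, 81 and 87 calls on A12 and 95, 75, 95 and 103 on D12. The highest windows there were genes 2651 to 2700 on A12, with 3 genes higher and 8 lower of 44 tested, and genes 2401 to 2450 on D12, with 2 higher and 10 lower of 45. When each chromosome was divided into 20 bins of equal gene number, A12 had a smaller share of calls than D12 in 13 bins at 0 DPA, 14 at 2 DPA and 13 in the fiber comparison. Bins at the same relative position need not hold homoeologs.

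A few called genes were neighbours. Within a distance of 3 genes, A12 had 2 pairs of called genes at 0 DPA, 1 of them in the same direction, and none at 2 DPA. D12 had 3 pairs at 0 DPA, all in the same direction, and 7 at 2 DPA, 6 in the same direction. Pairs were not counted on the other chromosomes, and whether called genes lie together more than their number gives was not tested. The adjacent Gohir.D12G272800 and Gohir.D12G272900 were both higher in GhTM-1 at 2 DPA, by 2.64 and 3.31 on the log2 scale, and the adjacent Gohir.D12G045000 and Gohir.D12G045100 were both lower, by a log2 difference of -1.25 and -1.28. Gohir.D12G216900, 2 genes before Gohir.D12G217100, was lower at 0 DPA as was that gene (-2.86 and -3.23). The authors kept uniquely mapped reads, so reads that near-identical neighbours share are not in the FPKM values.

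Of the auxin response factors, transcription factors that act on auxin-regulated promoters, the study places 3 on these chromosomes, a list it chose on these libraries. None of the 3 passed between the lines in epidermal cells at 0 or 2 DPA, and 2 were lower in fiber cells than in GhMD17. The homologs of ARF8 are Gohir.A12G052900 and Gohir.D12G051400, 1 on each chromosome. The A12 gene had 25.9 and 18.8 FPKM in GhMD17 at 0 DPA and 16.9 and 12.5 at 2 DPA, against 13.2 and 8.64, then 13.9 and 8.52 in GhTM-1 epidermal cells and 11.4 and 4.69 in fiber cells. At 0 DPA its groups did not overlap, but the difference did not pass (-0.98 ± 0.415, adjusted p = 0.289). The D12 gene had 12.2 and 11.2, then 10.4 and 8.56 FPKM in GhMD17, 6.13 and 4.68, then 8.84 and 6.63 in GhTM-1 epidermal cells, and 4.88 and 2.61 in fiber cells. Its groups did not overlap at 0 DPA either, with a difference that did not pass (-0.995 ± 0.282, adjusted p = 0.1165). Its difference in fiber cells was -1.18 ± 0.282 (adjusted p = 0.0210), and that of the A12 gene was -0.89 ± 0.415 (adjusted p = 0.169). The difference between these genes was not tested. Gohir.D12G195600, a homolog of ARF2, had 7.98 and 6.47 FPKM in fiber cells against 26.2 and 14.1 in GhMD17 at 2 DPA, a difference of -1.31 ± 0.312 (adjusted p = 0.0209). The fiber calls of Gohir.D12G051400 and Gohir.D12G195600 were lost under 5 and 6 of 19 alternatives, with an adjusted p of up to 0.111 and 0.112.

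The most abundant genes of the chromosomes did not pass the test between the lines in epidermal cells at 0 or 2 DPA. Gohir.D12G033300 had 812 to 1391 FPKM in the GhTM-1 epidermal libraries, 819 to 979 in the GhMD17 libraries, and 1685 and 1766 in fiber cells, and its difference from GhMD17 in fiber cells did not pass (0.98 ± 0.317, adjusted p = 0.0612). Gohir.A12G097500 had 808 and 902 FPKM in fiber cells against 411 to 466 in GhMD17, and Gohir.D12G100500 had 835 and 932 against 448 to 488. Both passed on the p-value (adjusted p = 0.0277 and 0.0332) but stayed under a ratio of 2. Gohir.A12G121600 was called higher in fiber cells, with 748 and 731 FPKM against 387 and 297 in GhMD17 at 2 DPA (log2 difference 1.12 ± 0.291, adjusted p = 0.0284), a call lost under 4 of 18 alternatives.

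The wild type of G. barbadense, Gb3–79, was read on the genome of its own species and was not in the fit. Its values for genes with an ortholog are set beside those of G. hirsutum without a test. Of the genes called at both stages, 10 of 16 higher and 7 of 9 lower A12 genes and 11 of 18 higher and 7 of 8 lower D12 genes had an ortholog. Gb3–79 was nearer to GhTM-1 than to GhMD17 at both stages for 7 and 3 of these on A12 and for 6 and 5 on D12. It was nearer to GhMD17 at both stages for 1 and 2 on A12 and for 5 and 1 on D12. On any chromosome, 375 higher and 163 lower genes called at both stages had an ortholog. Gb3–79 was nearer to GhTM-1 at both stages for 70.7% and 49.1% of these. Gohir.D12G272900 had 28.3 to 41.6 FPKM in the epidermal and 67.6 and 70.1 in the fiber libraries of Gb3–79, Gohir.A12G272100 had 10.7 to 13.4 and 40.9 and 47.9, and Gohir.D12G014800 had 19.1 to 30.2 and 44.2 and 37.6. Gohir.D12G257200, which had a like pattern in G. hirsutum, had 0 to 8.39 FPKM in the epidermal and 13.3 and 0.957 in the fiber libraries of Gb3–79 and was nearer to GhMD17, as were Gohir.D12G039000, Gohir.D12G155200, Gohir.D12G166750 and Gohir.D12G229200. Gohir.D12G185100 had 98.6 to 126.4 FPKM in its epidermal and 4.20 and 5.30 in its fiber libraries. For Gohir.D12G039000, Gohir.D12G128100 and Gohir.D12G142500, Gb3–79 had at most 0.573, 0.348 and 0 FPKM, which can also be a failed estimate on the other genome.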

How the data were processed

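Per the labels and the methods of the study, the authors mapped paired reads with TopHat2 2.1.1 (G. hirsutum libraries to the TM-1 genome), kept uniquely mapped reads and computed FPKM per gene and library with Cufflinks 2.2.1 (SAMtools 1.5 is also named). FPKM values were used as deposited. They hold no counts, so depth and counting error per gene are unknown and precision is limited by having 2 libraries a group. The values in the table of orthologs and in those of the lines were identical.

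Genes over 0 FPKM in at least 1 of 10 libraries were fitted with limma 3.58.1 in R 4.3.3 on log2(FPKM + 1) as means of 5 groups, with eBayes and a trend, two-sided contrasts and Benjamini-Hochberg adjustment over all 57469 genes. Adding 1 FPKM understates changes of low genes. All groups shared one estimate of spread (5 residual degrees of freedom). Calls needed an adjusted p under 0.05, a higher group with a mean over 5 FPKM and a ratio of means over 1.5, or 2 for fiber against GhMD17. The interaction needed the adjusted p and a mean over 5 FPKM in 1 of the 4 epidermal groups. The study used P under 0.01, which is an alternative here.

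Named genes were, per chromosome and direction, the 5 called at both stages with the largest smaller difference, the 2 largest calls of each comparison of the lines with libraries that do not overlap, the 2 largest interactions, the auxin response factors, and the 2 most abundant genes. Neighbouring genes, genes listed at 0 and the abundant and 4 further genes of both stages were named after their values were seen. The chromosomes, lists and tests were chosen with earlier results of these data known. Scripts were tested on simulated data, and figures made in Python 3.11.15 (matplotlib 3.10.9). Alternatives were adding 0.1 FPKM before the log, an FPKM limit of 10 or none, only genes over 1 FPKM, P under 0.01, only the libraries compared, a replicate block, rescaling by the median ratio, only genes with orthologs, windows of 25 and 100 genes, and leaving out each library. A further table of the series, of Gb3–79 alone, was not used. Reference tables matched no gene ID, so no names or sequences are given.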

Additional observations from a re-analysis of the deposited data

Results flagged for a closer look

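For 3 genes the difference between GhTM-1 and GhMD17 epidermal cells differed between 0 and 2 DPA, by the limma test of the interaction of line and stage over all genes. The GhTM-1 layer had its fibers removed at 2 DPA only, so stage and the cells sampled cannot be told apart here. The difference at 2 DPA minus that at 0 DPA was 2.83 on the log2 scale for Gohir.A12G214500 (adjusted p = 0.0354), 3.33 for Gohir.D12G040100 (adjusted p = 0.0350) and 3.86 for Gohir.D12G078000 (adjusted p = 0.0487). In Gohir.A12G214500 it came from GhMD17 at 0 DPA, which had 8.31 and 9.11 FPKM. Every other epidermal library of these lines was below 1 for that gene. In the D12 genes it came from GhTM-1 at 2 DPA, where both were at 19.2 FPKM or more. For these genes every other epidermal library of the lines was at 1.37 FPKM or below. Gb3–79 was not tested. Its epidermal cells had 2.61 and 2.22 FPKM of Gohir.A12G214500 at 0 DPA and 0.148 and 0 at 2 DPA. They had 2.94 and 6.19 FPKM of Gohir.D12G078000 at 0 DPA and 8.33 and 6.47 at 2 DPA, and Gohir.D12G040100 had no ortholog values. With an unadjusted p under 0.05 in place of the adjusted one, 81 of 1119 A12 genes and 84 of 1182 D12 genes with a mean over 5 FPKM in an epidermal group would have passed. That count was not made over all genes, and such a limit also passes genes without a difference. Whether the counts set these chromosomes apart was therefore not tested. Single libraries in groups of 2 were not tested for standing apart.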

How the results depend on the processing

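On both chromosomes the counts of called genes changed with the threshold and with the libraries in the fit. None of the 80 calls of named genes changed direction. Under an unadjusted P under 0.01, 116 A12 and 147 D12 genes were called at 0 DPA, 101 and 136 at 2 DPA, 157 and 161 for fiber against GhTM-1 epidermal cells, 22 and 31 for the interaction, and 48 and 66 at both stages. With only the libraries of the groups compared, these were 6 and 14, 6 and 16, 3 and 3, 0 and 0, and 1 and 3. The genes of both stages were then Gohir.A12G014200, Gohir.D12G039000, Gohir.D12G257200 and Gohir.D12G272900. With a minimum of 10 FPKM, D12 had 240 calls for fiber against GhMD17 and 61 for fiber against GhTM-1 epidermal cells, and the A12 interaction count was 0. With only genes with a mean over 1 FPKM, the A12 interaction count was 2 and D12 had 44 genes at both stages. With a pseudocount of 0.1 no interaction was called on either chromosome (0 and 0), and among genes with orthologs D12 had 1. Leaving out each library in turn gave 12 to 37 A12 and 18 to 48 D12 genes at 0 DPA, 10 to 33 and 16 to 45 at 2 DPA, 209 to 308 and 233 to 346 for fiber against GhMD17, 27 to 53 and 39 to 63 for fiber against GhTM-1 epidermal cells, 0 to 5 and 0 to 2 for the interaction, and 6 to 17 and 8 to 19 at both stages. The count at 0 DPA was also lower without a library outside the comparison, at 29 on A12 and 37 on D12 without either fiber library and at 30 or 31 and 40 without either GhMD17 library of 2 DPA. The count at 2 DPA was 27 or 28 on A12 and 37 on D12 without either GhMD17 library of 0 DPA, and 41 on D12 without replicate 2 of GhTM-1 at 0 DPA. Of 80 calls of named genes, 27 were kept under every alternative and 53 were lost under 1 or more. The cause was not tested.

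The replicate numbers are shared between groups in the labels, which do not say what a number marks. The deviations of same-numbered libraries correlated at -0.101 to 0.123 across genes, so the libraries were not treated as pairs. With the replicate number as a block the counts were 44 and 58 at 0 DPA, 41 and 63 at 2 DPA, 330 and 366 for fiber against GhMD17, and 0 and 0 for the interaction.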
